A study of Mus musculus with 47 samples.

Results

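Cgref1, Abhd1, Atraid, Mrpl33 and Gm2420 are 5 genes of mouse chromosome 5 that lie 2 to 5 Mb from Htt, out of 48795 genes in the deposited tables. They were chosen by their differences between mice with and without the Q140 allele of Htt in these same libraries, so their Q140 differences are described below without a test. All 5 of 5 passed the filter on low counts, as did 19174 genes in all and 82 of the 161 genes listed 2 to 5 Mb from Htt. Gm2420 passed only through the mice with Q140, at 12 to 32 counts each. In the mice without Q140 it had at most 6, under the minimum count of 10. RNA was sequenced from the cerebral cortex of 47 mice of C57BL background aged 6 months. Q140 is a knock-in allele of Htt with an expanded CAG repeat, used as a model of Huntington's disease, and the titles give its carriers as heterozygous. The 6 genotypes were wild type (WT), Ccdc82+/- and Ccdc82-/- without Q140, and Q140, Q140 X Ccdc82+/- and Q140 X Ccdc82-/- with it. Each genotype had 8 mice, 4 female and 4 male, except Q140 X Ccdc82-/-, which had 7, 3 female and 4 male. The 3 genotypes without Q140 held 24 mice and the 3 with it 23.

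A knock-in allele is carried forward by breeding together with the stretch of chromosome around it. Genes on that stretch are inherited with the allele unless a crossover separates them, and the chance of a crossover grows with distance. The alleles that each mouse carried at these genes were not analysed here. Cgref1 encodes a secreted protein with EF-hand domains that bind calcium. Atraid was named as a gene induced by all-trans retinoic acid and encodes a membrane glycoprotein. Mrpl33 encodes a protein of the large subunit of the mitochondrial ribosome, which translates the messages of mitochondrial DNA. Abhd1 belongs to the alpha/beta hydrolase domain family. Gm2420 is annotated as a transcribed unprocessed pseudogene, a duplicated copy of another gene that makes RNA and is not annotated as coding for a protein.

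All 5 genes lay at lower coordinates than Htt (34761740 to 34912534, plus strand, GRCm38). Cgref1 (ENSMUSG00000029161) occupied 30933143 to 30945591 on the minus strand and was protein coding. Abhd1 (ENSMUSG00000006638) occupied 30950066 to 30955091 on the plus strand and was annotated as a processed transcript. Atraid (ENSMUSG00000013622) occupied 31048312 to 31054623 on the plus strand. Mrpl33 (ENSMUSG00000106918) occupied 31596935 to 31664384 on the plus strand, and Gm2420 (ENSMUSG00000082305) 32720330 to 32736194 on the plus strand. The gaps to the Htt gene body were 3.816, 3.807, 3.707, 3.097 and 2.026 Mb in that order. Cgref1 and Abhd1 were 4475 bases apart and pointed away from each other, and Atraid began 93221 bases beyond Abhd1. Mrpl33 was 542312 bases from Atraid and Gm2420 1055946 bases from Mrpl33, so the 5 genes formed a cluster of 3, with Mrpl33 and Gm2420 apart from it.

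The sequence of Gm2420 bears on what its counts can mean, because reads can be told apart from those of a like gene only where the sequences differ. The best match of each of its 3 GENCODE transcripts outside Gm2420 was Sfi1, a gene on chromosome 11 for a protein that binds centrin at centrosomes. The longest, of 2249 bases, matched an Sfi1 transcript at 93.9% identity over 2266 aligned bases. Gm2420-203 and Sfi1-207 were both 447 bases long in 3 exons of the same lengths, with 28 mismatches and no gap, and their longest identical run was 37 bases. The 131 bases of the first exon that are coding in Sfi1 are shown for both, on the strand of each gene, with the 8 mismatched bases in capitals (Gm2420 at chr5:32720394-32720524, plus strand, and Sfi1 at chr11:3146162-3146292, minus strand, GRCm38).
Gm2420-203: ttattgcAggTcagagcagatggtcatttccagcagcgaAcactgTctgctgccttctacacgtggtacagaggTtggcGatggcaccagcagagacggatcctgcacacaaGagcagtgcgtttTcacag
Sfi1-207: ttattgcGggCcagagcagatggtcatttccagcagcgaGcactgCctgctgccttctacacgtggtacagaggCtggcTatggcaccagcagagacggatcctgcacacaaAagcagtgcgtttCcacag
The longest run shared in this stretch was 32 bases. Whether reads of one copy were counted at the other was not tested. Sfi1 was at 24.3 ± 2.59 CPM (SD, n = 24) in mice without Q140 and 24.8 ± 2.78 CPM (n = 23) in mice with it. Its averaged Q140 difference was 0.03 ± 0.0464 (log2, SE; edgeR quasi-likelihood test, adjusted p = 0.928).

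Gm2420 was the gene with the largest relative difference among the 5. CPM are counts scaled to library depth after normalization by the trimmed mean of M-values. Gm2420 had 0 counts in 5 of the 24 mice without Q140, and at most 6. In WT its lowest, median and highest values were 0, 0.0371 and 0.12 CPM, in Ccdc82+/- 0, 0.0307 and 0.115 CPM, and in Ccdc82-/- 0, 0.0409 and 0.0452 CPM. In Q140 they were 0.24, 0.389 and 0.515 CPM, in Q140 X Ccdc82+/- 0.304, 0.527 and 0.615 CPM, and in Q140 X Ccdc82-/- 0.303, 0.416 and 0.59 CPM. All 23 mice with Q140 lay above all 24 without it. In reads, Gm2420 had 12 to 32 counts in each mouse with Q140, 501 in all, against 52 in all in the others. The ratio of mean CPM was 7.42 on Ccdc82+/+, 11.4 on Ccdc82+/- and 12.9 on Ccdc82-/-. The fitted log2 difference averaged over the 3 Ccdc82 genotypes was 3.30 ± 0.206 (SE). These are low levels, and with so few counts the size of the ratio is less certain than its direction in each mouse.

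Mrpl33 differed by far less, but its values also did not overlap. Its lowest, median and highest CPM were 10.2, 11.3 and 12.2 in WT, 10, 10.8 and 11.9 in Ccdc82+/-, and 10.4, 10.9 and 11.5 in Ccdc82-/-. They were 12.2, 13.3 and 15.2 in Q140, 13.3, 14.1 and 14.9 in Q140 X Ccdc82+/-, and 12.8, 13.4 and 14.6 in Q140 X Ccdc82-/-. The lowest mouse with Q140, at 12.24 CPM, was just above the highest without it, a WT female at 12.17 CPM. The ratios of mean CPM were 1.21, 1.30 and 1.23 on Ccdc82+/+, Ccdc82+/- and Ccdc82-/-, and the averaged log2 difference was 0.32 ± 0.0245 (SE). Of the 19174 genes tested, 2 had no overlap between mice with and without Q140 (0.0104%), and both were among the 5: Gm2420 and Mrpl33. Since the 5 were chosen on this contrast, nothing is read from that count. The Mrpl33 locus in the annotation spans 67450 bases and overlaps Rbks on the opposite strand over 39946 bases. It also overlaps Gm43809, on its own strand, over 67447 bases. Rbks, which encodes ribokinase, averaged 58.7 counts per library and differed by 0.05 ± 0.0728 (adjusted p = 0.906, edgeR), and Gm43809, at a mean of 0.574 counts, did not pass the filter.

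Abhd1 differed in 18 of the 23 mice with Q140 and lay inside the range of the other genotypes in 5. Its lowest, median and highest CPM were 1.85, 2.24 and 2.93 in WT, 1.88, 2.23 and 3.19 in Ccdc82+/-, and 1.33, 2.07 and 2.57 in Ccdc82-/-. They were 1.76, 5.35 and 6.07 in Q140, 2.07, 5.65 and 6.31 in Q140 X Ccdc82+/-, and 2.42, 5.01 and 6.12 in Q140 X Ccdc82-/-. No mouse with Q140 lay between 2.54 and 4.70 CPM. The ratios of mean CPM were 1.99, 2.09 and 2.33 on Ccdc82+/+, Ccdc82+/- and Ccdc82-/-, and the averaged log2 difference was 1.09 ± 0.124 (SE). Abhd1 overlaps Preb, a gene on the opposite strand for a regulator of transport from the endoplasmic reticulum, over 4239 of its 5026 bases. Preb averaged 3086 counts per library against 88 to 323 for Abhd1 in mice with Q140, and whether the counting used strand is not stated in the labels, so reads of the pair may not be fully separated. Preb was at 61.7 ± 1.62 CPM (SD, n = 24) without Q140 and 60.2 ± 1.45 CPM (n = 23) with it, an averaged log2 difference of -0.04 ± 0.0123 (adjusted p = 0.226, edgeR).

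Cgref1 was higher with Q140 by a smaller margin, and its groups overlapped. Its lowest, median and highest CPM were 6.70, 7.75 and 9.13 in WT, 7.49, 8.06 and 9.25 in Ccdc82+/-, and 6.72, 7.58 and 9.32 in Ccdc82-/-. They were 7.54, 9.29 and 11.8 in Q140, 8.74, 9.62 and 10.9 in Q140 X Ccdc82+/-, and 8.23, 9.93 and 10.7 in Q140 X Ccdc82-/-. Above the highest of the 24 mice without Q140 lay 13 of the 23 with it. The ratios of mean CPM were 1.23, 1.22 and 1.23 on the 3 Ccdc82 genotypes, and the averaged log2 difference was 0.29 ± 0.0424 (SE).

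Atraid was the only gene of the 5 that was lower with Q140. Its lowest, median and highest CPM were 32, 36.6 and 40.4 in WT, 34.1, 36 and 36.7 in Ccdc82+/-, and 33, 35.4 and 38.6 in Ccdc82-/-. They were 29.9, 30.9 and 36 in Q140, 29.2, 30.0 and 37.7 in Q140 X Ccdc82+/-, and 23.0, 29.2 and 39.1 in Q140 X Ccdc82-/-. Below the lowest of the 24 mice without Q140 lay 17 of the 23 with it. The ratios of mean CPM were 0.865, 0.883 and 0.839 on Ccdc82+/+, Ccdc82+/- and Ccdc82-/-, and the averaged log2 difference was -0.21 ± 0.0353 (SE). The 5' end of Atraid overlaps that of Slc5a6, the sodium-dependent multivitamin transporter gene on the opposite strand, over 613 bases, and Slc5a6 differed by 0.06 ± 0.0212 (adjusted p = 0.235, edgeR).

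**Figure D1:**
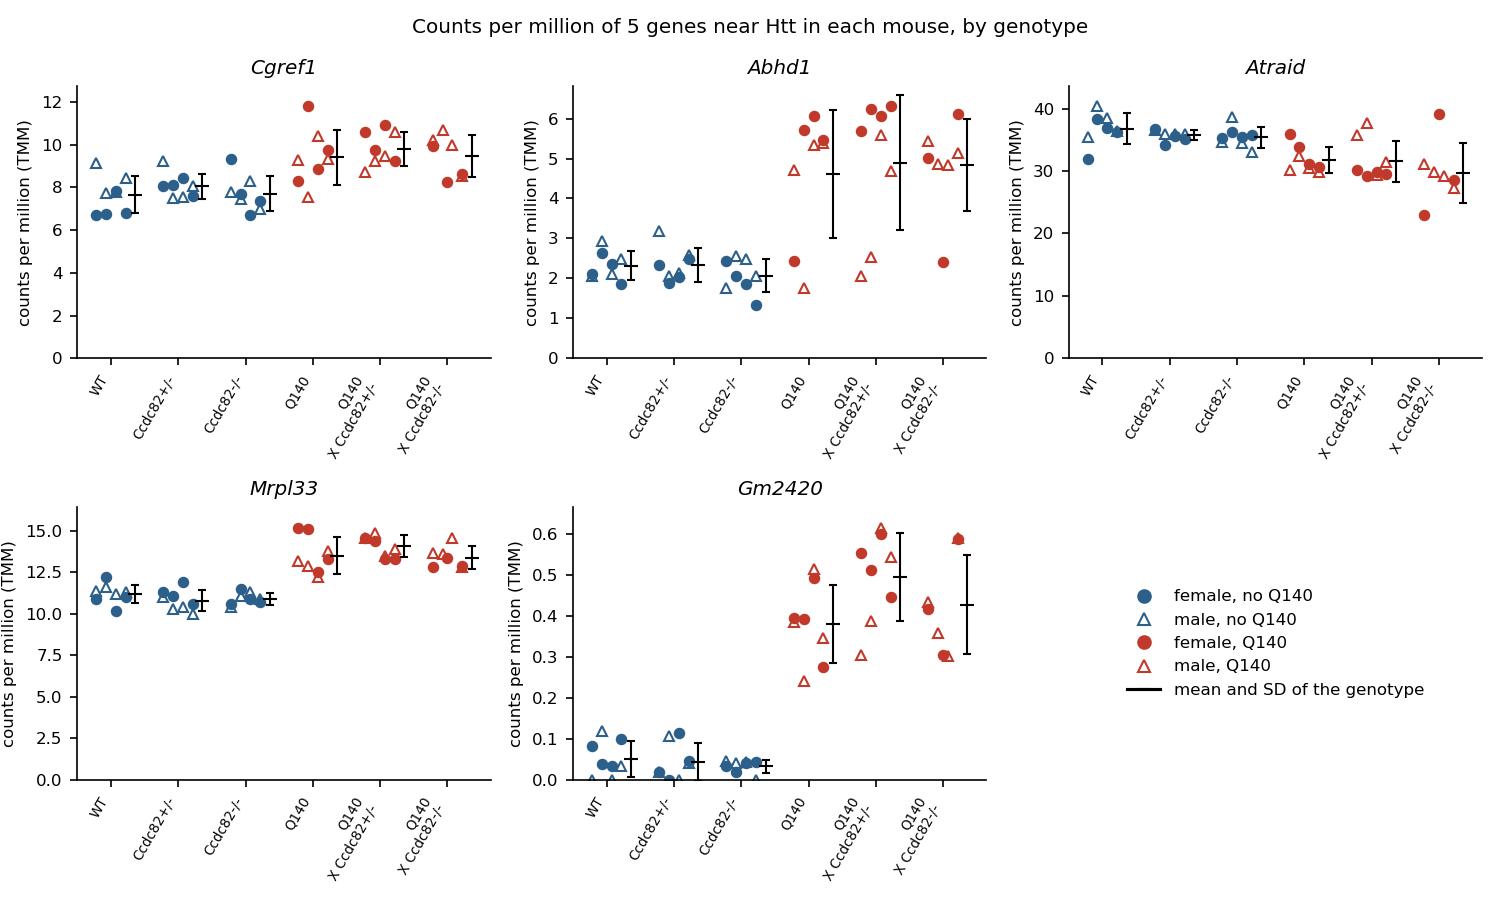
CPM (vertical axes, each from 0) of the 5 genes in each of the 47 mice by genotype, with filled circles for females, open triangles for males and black bars for the mean and SD of a genotype. Gm2420 and Mrpl33 are higher in all 23 mice with Q140 (red) than in all 24 without it (blue), while for Abhd1 5 mice with Q140 sit among those without it.

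In the comparison behind the choice, 4 of the 5 genes were higher and 1 lower in the averaged Q140 comparison at an adjusted p under 0.05, against 168 of 19174 genes over all (0.876%), with 0.339% higher and 0.537% lower. On the Ccdc82+/+ background 2 of the 5 passed, Gm2420 and Mrpl33, against 0.0313% of all genes. On Ccdc82+/- 3 passed, Abhd1, Gm2420 and Mrpl33, against 0.0313% of all genes, and on Ccdc82-/- the same 3, against 0.0209%. Cgref1 and Atraid passed on no single background, so for them a difference on every Ccdc82 genotype rests on its like direction and not on a call in each. Their fitted log2 differences on Ccdc82+/+, Ccdc82+/- and Ccdc82-/- were 0.30, 0.28 and 0.29 for Cgref1 and -0.21, -0.18 and -0.25 for Atraid. Those of Abhd1 were 0.99, 1.06 and 1.22, those of Mrpl33 0.27, 0.38 and 0.30, and those of Gm2420 2.87, 3.41 and 3.62. These comparisons were part of the choice and nothing is read from the counts.

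Per length, the 5 genes spanned a wide range of levels, and the order of the means of Abhd1 and Mrpl33 differed between mice with and without Q140. In FPKM (fragments scaled to gene length and library depth, as deposited), mice without Q140 averaged 17.2 ± 0.956 for Atraid, 3.74 ± 0.375 for Cgref1, 1.5 ± 0.0757 for Mrpl33, 1.27 ± 0.234 for Abhd1 and 0.0184 ± 0.0159 for Gm2420 (SD, n = 24). Mice with Q140 averaged 15 ± 1.73 for Atraid, 4.60 ± 0.507 for Cgref1, 2.72 ± 0.822 for Abhd1, 1.87 ± 0.129 for Mrpl33 and 0.188 ± 0.049 for Gm2420 (SD, n = 23). The ranges of Abhd1 and Mrpl33 overlapped in both sets of mice, from 0.75 to 1.84 against 1.36 to 1.66 FPKM without Q140, and from 0.992 to 3.56 against 1.66 to 2.09 FPKM with it. The ranges of the other neighbours in the order did not overlap. The gene model that the files imply for Mrpl33 is 7326 bases, against 2082 for Cgref1 and for Atraid, 1758 for Abhd1 and 2310 for Gm2420, and that length lowers its FPKM.

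The 5 mice with Q140 and low Abhd1 were a Q140 female (replicate 1), a Q140 male (replicate 2), 2 Q140 X Ccdc82+/- males (replicates 1 and 2) and a Q140 X Ccdc82-/- female (replicate 2). Their Abhd1 values were 2.43, 1.76, 2.07, 2.54 and 2.42 CPM in that order. Atraid, the neighbour of Abhd1 on the higher coordinate side among the 5, was at 36, 32.4, 35.8, 37.7 and 39.1 CPM in them, which are all inside the range without Q140. They held 5 of the 6 highest Atraid values among the 23 mice with Q140. Cgref1, on the lower coordinate side, was at 8.29, 7.54, 8.74, 9.22 and 8.23 CPM in the same mice, also all inside the range without Q140. The other 18 mice with Q140 ranged from 4.70 to 6.31 CPM for Abhd1, from 23.0 to 33.8 CPM for Atraid and from 8.52 to 11.8 CPM for Cgref1.

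For Mrpl33 and Gm2420, which lie nearer to Htt, these 5 mice did not fall inside the range without Q140. In the same 5 mice Mrpl33 was at 15.2, 12.9, 14.6, 14.9 and 13.4 CPM and Gm2420 at 0.395, 0.24, 0.304, 0.388 and 0.305 CPM, all above the mice without Q140. The other 18 ranged from 12.2 to 15.1 CPM for Mrpl33 and from 0.276 to 0.615 CPM for Gm2420. Counted from the lowest of the 23 mice with Q140, the 5 ranked 11, 1, 4, 9 and 5 for Gm2420. For Mrpl33 they ranked 23, 6, 18, 21 and 11, so Gm2420 was on the low side in them and Mrpl33 was not. The Q140 male had the lowest Cgref1, Abhd1 and Gm2420 of all 23 mice with Q140. The mice were found by their values and form no group of the study, so no mean or test is given for them. In the submitters' library names, a number precedes the mouse's own digit, and the labels do not say what it stands for. The mice with Q140 under number 19 (2 of 2) and number 21 (2 of 2) were among the 5, as was 1 of the 2 under number 27. The part of that number in the result was not tested.

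**Figure D2:**
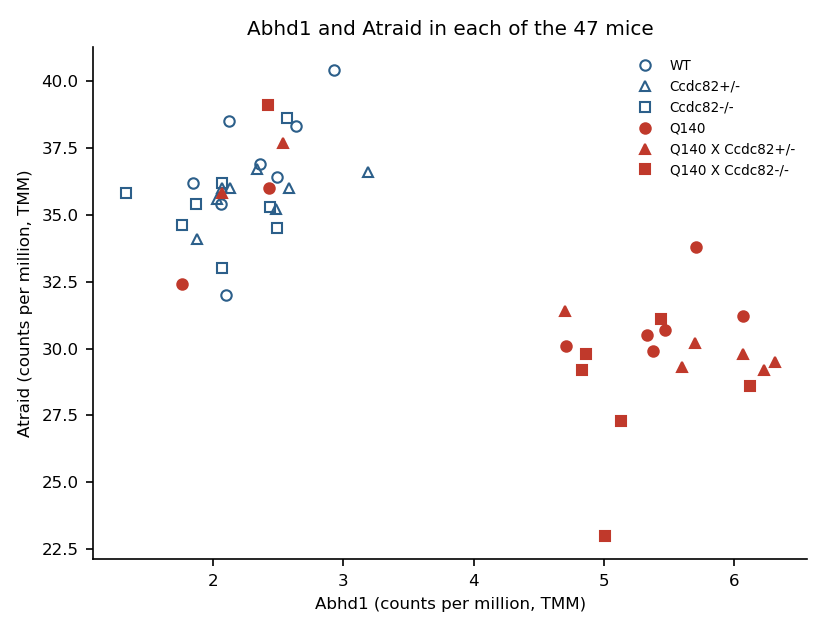
Abhd1 (horizontal) and Atraid (vertical) in CPM for each of the 47 mice, with open blue symbols for mice without Q140, filled red symbols for mice with it and shapes for the Ccdc82 genotype. The 18 mice with Q140 at 4.70 CPM or more of Abhd1 lie apart at the lower right, and 5 red symbols lie among the 24 blue ones.

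A pair of genes farther from Htt on the same side, Gm6089 and Gm5067, divided the mice with Q140 at another place. They lie 8.69 and 8.75 Mb from Htt and were not members of the 5. Both were higher with Q140 in the averaged comparison, by 1.98 ± 0.334 and 1.03 ± 0.179 (log2, SE, adjusted p = 0.00047 and 0.000636, edgeR). Of 55 tested genes 5 to 10 Mb from Htt, 4 passed (7.27%, against 0.876% of all genes). Another of the 4, Gm43143, at 9.07 Mb, was higher by 0.53 ± 0.099 (adjusted p = 0.00141, edgeR). It was above the range without Q140 in 10 mice with Q140, among them the low-Abhd1 Q140 X Ccdc82+/- male (replicate 2), and inside it in 13. By the same measure Gm5067 was above the range in 11 and inside it in 12. Gm6089 was above it in 6, below it in 1 and inside it in 16. For both of these genes 1 WT female set the upper end of that range. In the 5 mice with low Abhd1, Gm6089 ranged from 0.0717 to 0.435 CPM and Gm5067 from 0.36 to 0.674 CPM, against medians of 0.222 and 0.478 CPM in the mice without Q140. Among the 18 mice with high Abhd1, 15 ranged from 1.07 to 2.85 CPM of Gm6089 and from 0.948 to 1.84 CPM of Gm5067. The other 3 also had low values of both. They were a Q140 X Ccdc82+/- male (replicate 4; 0.101 CPM of Gm6089 and 0.423 of Gm5067), a Q140 X Ccdc82-/- female (replicate 1; 0.178 and 0.633) and a Q140 X Ccdc82-/- male (replicate 3; 0.132 and 0.473). Among the mice without Q140, 1 WT female (replicate 3) had 1.49 CPM of Gm6089 and 1.16 CPM of Gm5067, the highest of the mice without Q140, while her Abhd1, at 2.36 CPM, Mrpl33, at 10.2 CPM, and Gm2420, at 0.0342 CPM, were inside the range of her group. In order of distance from Htt, the mice with Q140 outside the range of the mice without it numbered 23 for Gm2420, 23 for Mrpl33, 17 for Atraid, 18 for Abhd1 and 13 for Cgref1. The genes differ in size of difference and in spread, and a trend with distance was not tested.

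**Figure D3:**
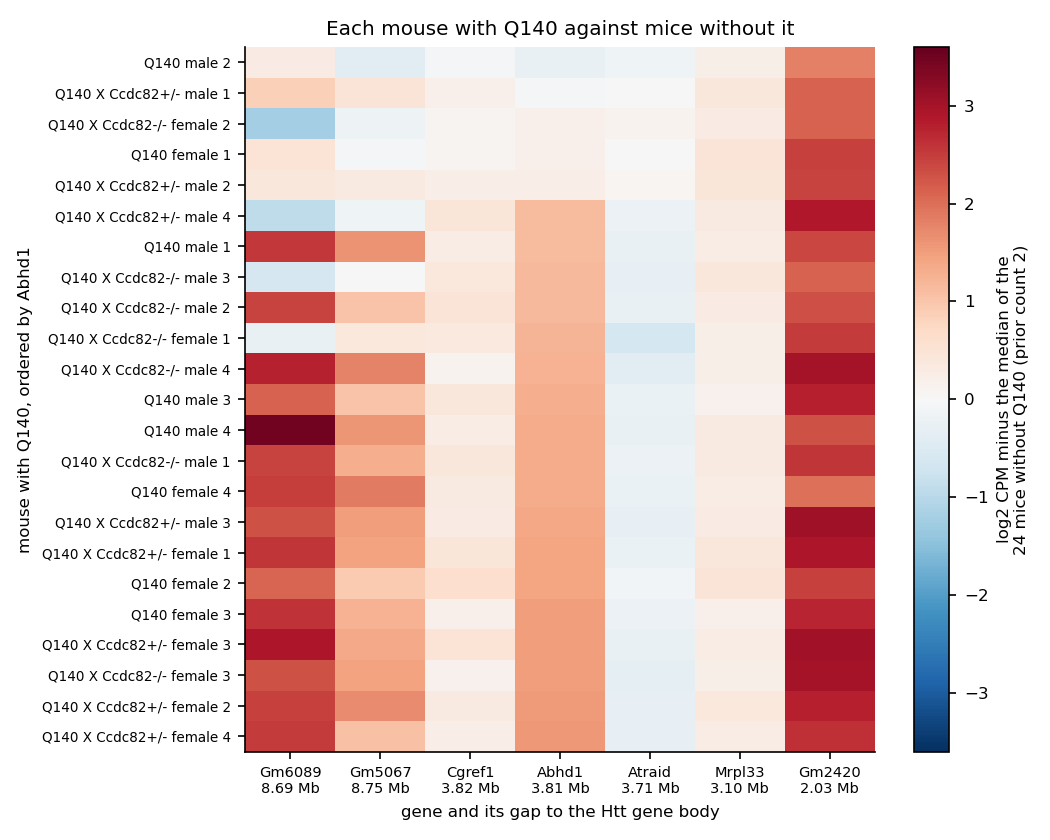
Each row is one of the 23 mice with Q140, ordered by Abhd1, and each column a gene with its gap to Htt in Mb; colour gives log2 CPM (prior count 2) minus the median of the 24 mice without Q140. The top 5 rows are pale at Abhd1 but red at Gm2420. In 3 lower rows Abhd1 is red while Gm6089 is pale, with values inside the range of the mice without Q140.

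The Ccdc82 genotype did not move any of the 5 genes past the test. Ccdc82 itself, the gene targeted in the cross, fell stepwise with its labelled genotype in mice without Q140, from 16.2 ± 1.58 CPM in WT to 10.9 ± 0.962 CPM in Ccdc82+/- and 5.32 ± 0.595 CPM in Ccdc82-/- (SD, n = 8 each). Over the 6 Ccdc82 comparisons (each genotype against its control without Q140, with Q140, and averaged), 0 of 30 tests on the 5 genes passed at an adjusted p under 0.05 by edgeR's quasi-likelihood test, and 0 had an unadjusted p under 0.05. In each of the 6, 0.00522% of all genes passed, and 3.23% to 5.42% had an unadjusted p under 0.05. The smallest unadjusted p among the 30 was 0.0891, for Atraid in Ccdc82-/- averaged over Q140, where the log2 difference was -0.08 (95% interval -0.16 to 0.01, adjusted p = 1).

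For the other 4 genes the same comparison, Ccdc82-/- against Ccdc82+/+ averaged over mice with and without Q140, gave differences near 0 with intervals that set what could have been seen. The log2 difference was 0.01 (95% interval -0.10 to 0.11) for Cgref1 and -0.03 (-0.09 to 0.03) for Mrpl33. It was -0.04 (-0.35 to 0.27) for Abhd1 and -0.20 (-0.79 to 0.39) for Gm2420. For Ccdc82+/- averaged in the same way, the values were 0.07 (-0.04 to 0.17) for Cgref1, 0.04 (-0.26 to 0.35) for Abhd1, -0.02 (-0.11 to 0.06) for Atraid, 0.00 (-0.06 to 0.06) for Mrpl33 and 0.10 (-0.51 to 0.72) for Gm2420. The intervals were narrow for Mrpl33, Atraid and Cgref1 and wide for Gm2420, for which a moderate difference was not detectable at this depth.

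Whether the Q140 difference itself changed with the Ccdc82 genotype was tested as an interaction, a comparison that uses the contrast behind the choice and so is not independent of it. Of the 10 tests 0 passed, where 0% of all genes passed in either interaction (edgeR). At an unadjusted p under 0.05 there were 0 of the 10, while over all genes there were 674 for Ccdc82+/- and 567 for Ccdc82-/-. The Q140 difference in Ccdc82+/- minus that in Ccdc82+/+ was 0.11 (95% interval -0.01 to 0.23, adjusted p = 1) for Mrpl33, the smallest p of the 10 at 0.0752. In Ccdc82-/- minus Ccdc82+/+ it was 0.75 (-0.47 to 1.97) for Gm2420, 0.23 (-0.40 to 0.85) for Abhd1, -0.05 (-0.22 to 0.13) for Atraid, -0.01 (-0.22 to 0.20) for Cgref1 and 0.03 (-0.09 to 0.15) for Mrpl33. The Abhd1 values of mice with Q140 fell into a low and a high set. Estimates for Abhd1 in the Ccdc82, interaction and sex comparisons therefore also depend on how the low mice fell among genotypes and sexes. The same holds for Atraid, which was inside the range without Q140 in those mice.

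Between the sexes 10.5% of all genes passed the test (edgeR) and 0 of these 5, a count too small to set them apart from that share. Before adjustment, 4983 of all genes and 0 of the 5 had a p under 0.05. The female minus male log2 difference was 0.14 (95% interval -0.22 to 0.50, adjusted p = 0.675) for Gm2420, the smallest p of the 5 at 0.451. It was 0.07 (-0.18 to 0.33) for Abhd1, -0.02 (-0.11 to 0.06) for Cgref1, -0.02 (-0.09 to 0.05) for Atraid and 0.01 (-0.04 to 0.06) for Mrpl33. The Q140 difference in females minus that in males passed for 0 of the 5 and for 0% of all genes, with 769 genes and 0 of the 5 at an unadjusted p under 0.05. It was 0.41 (-0.07 to 0.90, adjusted p = 1, edgeR) for Abhd1. Of the 5 mice with Q140 and low Abhd1, 2 were female and 3 male.

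**Figure D4:**
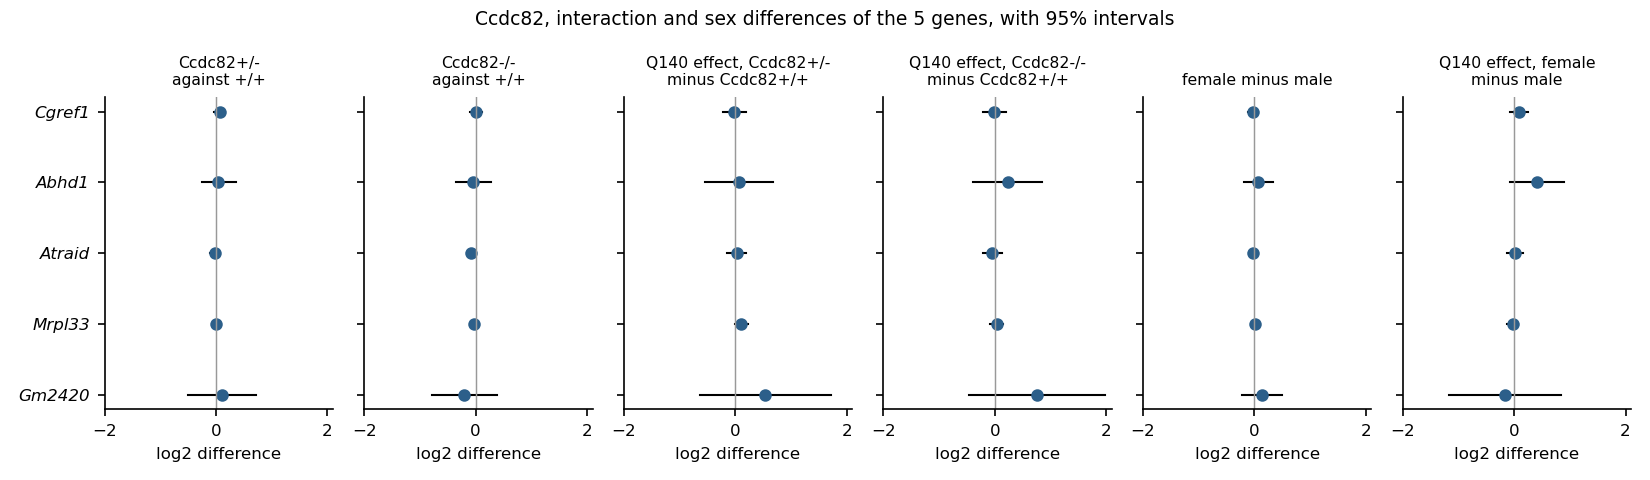
Fitted log2 differences (horizontal axes) of the 5 genes for the Ccdc82 genotypes averaged over Q140, the 2 interactions, sex, and the sex difference of the Q140 effect, as points with 95% intervals. All intervals include 0, and those of Gm2420 are the widest.

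Among the 82 tested genes 2 to 5 Mb from Htt, 8 passed in the averaged Q140 comparison (9.76%), namely the 5 genes, which were chosen on it, and 3 others. The median log2 difference was 0.003 against 0.001 over all genes. The 3 others were Plb1, Ppp1cb and Gm42528, and of the 77 genes other than the 5 they make 3.90%, where 0.876% of all genes passed. At an unadjusted p under 0.05 there were 17 of these 77, against 9.18% of all genes (edgeR). By side of Htt, with the 5 included, there were 21 of 61 at lower coordinates and 1 of 21 at higher ones. Plb1, which encodes a phospholipase, lies 2.40 Mb from Htt and was higher, at 4.2 ± 0.488 CPM (SD, n = 23) with Q140 against 3.54 ± 0.605 CPM (n = 24) without it (log2 difference 0.25 ± 0.0625, adjusted p = 0.033, edgeR). Ppp1cb, the beta catalytic subunit of protein phosphatase 1, lies 2.24 Mb from Htt and was lower by a small margin, at 278 ± 6.51 against 289 ± 8.44 CPM (-0.06 ± 0.0122, adjusted p = 0.00568, edgeR). Gm42528, the only one of the 8 on the far side of Htt, at 4.69 Mb, was also lower, at 6.19 ± 0.717 against 7.11 ± 0.838 CPM (-0.20 ± 0.045, adjusted p = 0.0142, edgeR). The values of all 3 overlapped between mice with and without Q140. Htt itself was at 226 ± 8.02 against 238 ± 8.06 CPM, a difference of -0.07 ± 0.0147 (adjusted p = 0.0032, edgeR).

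Among the tested genes next to each of them, other than one another, were Khk, 1895 bases from Cgref1, at 0.05 ± 0.0364 (adjusted p = 0.735), and Cad, 157 bases beyond Atraid, at 0.06 ± 0.0238 (0.374, edgeR). Pisd, 107 bases from Gm2420 and on the opposite strand, was at -0.03 ± 0.0209 (0.738), and Gm43852, 6342 bases away on the other side, at -0.18 ± 0.132 (0.751, edgeR). AI839979, 25538 bases from Mrpl33, was at 0.01 ± 0.124 (0.995, edgeR). With Preb, Slc5a6 and Rbks, the adjusted p of these 8 neighbouring genes ranged from 0.226 to 0.995 in edgeR.

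**Figure D5:**
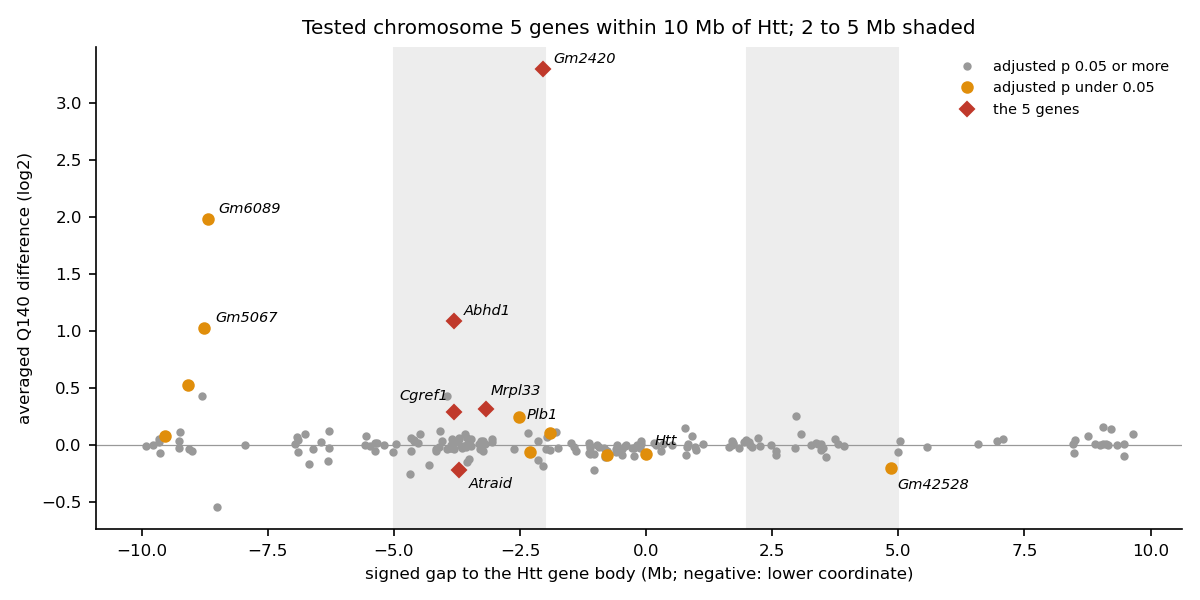
Averaged Q140 difference (log2, vertical) of each tested chromosome 5 gene within 10 Mb of Htt. The horizontal axis is the signed distance in Mb from the start of Htt to the start of the gene, although its label names the gene body. The span of 2 to 5 Mb is shaded, with red diamonds for the 5 genes and orange for other genes at an adjusted p under 0.05. The 5 genes lie to the left of Htt, and of 83 tested genes at 2 to 5 Mb by this distance 8 passed.

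Of 19 tested ABHD family genes, 1 rose, Abhd1, and 0 fell, with a median log2 difference of -0.007. The next in size was Abhd3, at -0.07 ± 0.0214 (adjusted p = 0.123, edgeR). Of 48 tested genes for large subunit mitochondrial ribosomal proteins, 1 rose, Mrpl33, and 0 fell, with a median of -0.001, and the next in size was Mrpl36 at -0.05 ± 0.0292 (adjusted p = 0.681, edgeR). Of 18 tested genes listed for Atraid, 0 rose and 0 fell, with a median of -0.006. These were genes of retinoid receptors, carriers and enzymes, together with Slc37a3, which is none of those. Over all genes 0.339% rose and 0.537% fell at an adjusted p under 0.05. At an unadjusted p under 0.05 there were 2 of the 19, 1 of the 48 and 1 of the 18 genes of these lists, against 9.18% of all genes (edgeR). The largest by size among the retinoid genes went both ways. Aldh1a3, which makes retinoic acid, was at -0.23 ± 0.101 (adjusted p = 0.44) and Aldh1a2 at 0.17 ± 0.102 (0.681, edgeR). Stra6 followed at -0.13 ± 0.0841 (adjusted p = 0.695) and Rara, a retinoic acid receptor, at 0.11 ± 0.0591 (0.631, edgeR).

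The genes most like the 5 over the 47 mice, by the size of Pearson's r of log2 CPM, were often one another. The highest for Gm2420 were Mrpl33 (r = 0.827), Abhd1 (0.781) and Abca8a (0.73). For Mrpl33 they were Gm2420 (0.827), Abca8a (0.756) and Camkk2 (-0.725), and for Abhd1 they were Gm2420 (0.781), Cgref1 (0.78) and Gm5067 (0.751). For Cgref1 they were Abhd1 (0.78), Camkk2 (-0.708) and Glul (-0.704), and for Atraid Abhd1 (-0.734), Galnt11 (-0.686) and Gm2420 (-0.654). Gm5067, Galnt11 and Camkk2 also lie on chromosome 5, at 8.75, 9.5 and 87.8 Mb from Htt. All mice enter these values, so they carry the division by Q140 on which the genes were chosen, and no p is given.

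Within a genotype and sex, deviations from the mean were compared between all 10 pairs of the 5 genes. Because Abhd1 splits the mice with Q140, no r over those mice or over all 47 is given. In the 24 mice without Q140, 0 of 10 pairs passed by permutation within genotype and sex with adjustment over the 10 pairs. The largest was Abhd1 with Atraid, at r = 0.395 (permutation p = 0.0552, adjusted p = 0.552) and rho = 0.374 (permutation p = 0.0882, adjusted p = 0.468). Without the 2 mice farthest from the median of Abhd1, r was 0.464 (permutation p = 0.0606).

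Sequence before a RefSeq start is shown for Mrpl33 and Cgref1, both higher with Q140. RefSeq gives start regions for 3 of the 5 genes on GRCm38.p6, and the parts before the RefSeq start that hold no GENCODE exon are printed here in the direction of the gene, with a matched motif in capitals (Mrpl33 at chr5:31613701-31613938, plus strand, and Cgref1 at chr5:30945592-30945730, minus strand).
Mrpl33: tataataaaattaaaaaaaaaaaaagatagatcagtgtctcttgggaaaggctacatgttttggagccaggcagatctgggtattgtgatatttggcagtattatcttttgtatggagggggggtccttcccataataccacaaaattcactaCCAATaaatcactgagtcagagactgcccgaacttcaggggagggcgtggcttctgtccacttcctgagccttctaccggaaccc
Cgref1: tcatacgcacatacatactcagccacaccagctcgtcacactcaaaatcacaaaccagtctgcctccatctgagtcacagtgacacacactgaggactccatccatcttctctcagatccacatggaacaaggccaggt
The Mrpl33 stretch lies inside the span that GENCODE gives the gene, which begins at 31596935, so it is not upstream of all its annotated exons. Both strands were searched for the motif CCAAT, for the motif TATAAA and for the motif GGGCGG. Mrpl33 held 1 CCAAT, as did 32.9% of 32851 RefSeq start regions over the same 238 bases, and neither of the others, which 12% and 31% held. Cgref1 held none of the 3 in its 139 bases, where 18.6%, 6.86% and 15.2% of start regions held them.

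Library totals were 44090380 to 58920165 counts in mice without Q140 and 43554594 to 61370843 in those with it. The markers of the labelled tissue were present: 8 of 8 cortical neuron markers were detected, with median levels from 18.3 to 556 FPKM. Their summed level was 1463 to 1583 FPKM without Q140 and 1391 to 1515 FPKM with it. In the averaged Q140 comparison 2 of the 8 passed, against 0.876% of all genes (edgeR). For 4 astrocyte markers the summed ranges were 303 to 366 and 295 to 344 FPKM, with 1 called. For oligodendrocytes (4 markers) they were 217 to 357 and 242 to 386 FPKM, for microglia (4) 40.5 to 49.8 and 42.8 to 51.0, and for endothelium (3) 18.7 to 25.2 and 18.6 to 26.7, with 0 called in each. For red cells (4 markers), choroid plexus (3) and meningeal fibroblasts (3) the ranges were 0.468 to 38.7 and 0.174 to 43.8, 0.351 to 2.90 and 0.446 to 3.24, and 3.56 to 8.03 and 3.44 to 8.86 FPKM, also with 0 called. At an unadjusted p under 0.05 in edgeR there were 4 of 8 neuron and 3 of 4 astrocyte markers, against 9.18% of all genes. Of the other types there were 1 oligodendrocyte, 2 microglia, 1 choroid plexus and 1 meningeal marker, and 0 of endothelium and red cells. No marker had a median of 0, and the part of these differences in the levels of the 5 genes was not tested. In bulk tissue, fewer cells of a type and less RNA per cell cannot be told apart.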

How the data were processed

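RNA from the cerebral cortex of 47 mice was sequenced with a stranded library kit, per the labels' protocols. The authors deposited raw read counts per gene and FPKM (fragments scaled to gene length and library depth) per gene, 1 column per library. Per the submitters' processing notes, the tools included HTSeq 0.12.3, SAMtools 1.10 and STAR 2.7.5c, and the builds listed are mm10 and GRCm38. Which annotation release was used, and whether counting used strand, are not given in the sources used here. Positions came from GENCODE M21, in which 48435 of 48795 gene identifiers were found, and upstream sequences from RefSeq (GRCm38.p6). Depth per library was 43554594 to 61370843 counts (median 50473683), and no 2 libraries of a genotype agreed within sampling noise (chi-square per gene 3.73 to 22.7).

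The filter on low counts was edgeR's filterByExpr, set to a minimum count of 10 and a minimum total of 15. Counts of all 47 libraries were fitted in 1 edgeR 4.0.16 quasi-likelihood model (R 4.3.3) with TMM normalization, the 6 genotype means and sex, and p-values were adjusted over all 19174 genes by the Benjamini-Hochberg method; calls are at an adjusted p under 0.05. The fit was tested on simulated counts first. The sex difference of the Q140 effect came from genotype-by-sex means. Standard errors follow from the F statistic. Correlations of deviations from genotype-by-sex means used 100000 permutations within genotype and sex. Alternatives were DESeq2 1.42.0, its size factors, no filter, limma 3.58.1 on log2(FPKM + 0.1) and log2(FPKM + 1), plate column, no sex term, 2 numbers as blocks, and the compared groups alone. Gm2420 transcripts were aligned to all GENCODE transcripts with BLAST.

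Genes named beside the 5 were Htt and Ccdc82, other genes called 2 to 5 Mb from Htt, the nearest tested genes, the 3 most alike by r, the best sequence match, overlapping genes, and family lists. Gm6089 and Gm5067 were singled out after their values were seen, and Gm43143 was set beside them as another called gene 5 to 10 Mb from Htt. The 5 genes and the lists were chosen with earlier results of these data known. Each library was taken as 1 mouse, since titles give every library its own number; nothing further states how mice were related, so p-values measure the spread between these samples. Fold changes on the FPKM scales understate low genes.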

Additional observations from a re-analysis of the deposited data

Results flagged for a closer look

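Within a genotype, a sample was marked when its gap to the nearest other, as a share of the whole range, exceeded Dixon's critical value, which chance does for about 1 in 20 groups. Of the 30 sets of values (5 genes in 6 genotypes) 1 sample was marked. Abhd1 in the Q140 X Ccdc82-/- female with replicate number 2 was at 2.42 CPM, where the 6 other mice of the genotype ranged from 4.83 to 6.12 CPM. The gap was 0.651 of the range, against a critical value of 0.568 for 7 samples. It is one of the 5 mice with Q140 and Abhd1 inside the range of mice without it. The other 4 were not marked because each had a second low mouse in its genotype.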

How the results depend on the processing

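Over 195 refitted Q140 differences of the 5 genes, 0 changed direction and 182 stayed within 1 SD between mice of the value given. The 13 others all came from log2 of FPKM with a pseudocount, which by construction compresses low genes: the averaged difference of Gm2420 was 1.28 with a pseudocount of 0.1 and 0.22 with 1, and that of Mrpl33 0.20 with 1. The averaged values ranged from 0.22 to 3.46 for Gm2420, 0.68 to 1.09 for Abhd1, 0.20 to 0.32 for Mrpl33, 0.24 to 0.29 for Cgref1 and -0.22 to -0.20 for Atraid. Under every alternative run, 0 of the 5 genes passed for Ccdc82, the interactions, sex or the sex difference of the Q140 effect. Genes called 2 to 5 Mb from Htt numbered 7 to 9, with all 5 in each; Plb1 missed the threshold without a filter on low counts (adjusted p = 0.0508 in edgeR), and Tyms passed in DESeq2 and with the random block. With the title number as a replicate block, 8 genes were called there and 0 of the 5 elsewhere. Those numbers do not pair the mice: the mean correlation of deviations of same-numbered mice was at most -0.00318, and 4 of 47 libraries were closest to their own number. The library-name number, as a random replicate block with a correlation of 0.142, gave 9. Of the 10 pairs of genes, 2 passed in deviations over all 47 mice, 4 in the mice with Q140 and 0 in the mice without Q140. The pairs that passed in the mice with Q140 were Abhd1 with Cgref1, with Atraid and with Gm2420, and Atraid with Mrpl33. The last of these does not hold Abhd1 and also passed over all 47 mice. In the 5 mice with low Abhd1, though, Atraid was inside the range without Q140. The split of those mice by Abhd1 enters both counts that include them, so nothing is read from these counts. Depth limits Gm2420, at 0 to 6 counts per library without Q140.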
